A study of Mus musculus with 9 samples.

Results

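Narrow peaks are the deposited RNA peaks of the Polycomb proteins EZH2 and SUZ12 whose width, end minus start, was at most 60 bp. They numbered 495 of 49266 peaks, or 1.00%, in 4 libraries. Members were chosen by width, a value the peak caller set, so their widths are a description and not a result. The peaks of 100 to 200 bp, 37162 in number and 75.4% of all peaks, served as the comparison in each library.

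All libraries came from female EL 16.7 mouse embryonic stem cells, a cross of CAST/Ei and 129/Sv/Jae, differentiated for 7 days. Every line stably expressed the biotin ligase BirA, which adds biotin to an Avi tag, together with either Avi-GFP-mEzh2 or Avi-GFP-mSuz12. The assay was dCLIP, in which RNA crosslinked to the tagged protein by UV light is captured on streptavidin. There were 2 EZH2 and 2 SUZ12 libraries, each from a single stable clone of its own, and 1 strand of 1 library formed each of the 8 peak lists. Left out here were 4 PRO-seq libraries and 1 mock library from cells with BirA and an empty vector. Whether the peaks were called against the mock library is not given in the sources used here.

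EZH2 is the subunit of Polycomb repressive complex 2 (PRC2) that methylates histone H3, and SUZ12 is the core subunit that holds the complex together. PRC2 keeps developmental genes silent in stem cells and also binds many RNAs. In CLIP, an RNase trims the RNA around a crosslinked protein to short fragments. A peak is a stretch where such fragments pile up on 1 strand, so its width reflects how far the fragments spread as well as how the caller draws edges.

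EZH2 gave 10468 and 13267 peaks in replicates 1 and 2, and SUZ12 gave 11580 and 13951. Narrow peaks numbered 158 in EZH2 replicate 1, 95 in EZH2 replicate 2, 64 in SUZ12 replicate 1 and 178 in SUZ12 replicate 2. Their share of the library was 1.51% (95% Wilson interval 1.29 to 1.76%), 0.716% (0.586 to 0.874%), 0.553% (0.433 to 0.705%) and 1.28% (1.10 to 1.48%) in the same order. Replicate 1 was the higher EZH2 library and replicate 2 the higher SUZ12 library, so the groups overlapped. The mean share was 1.11 ± 0.561% (SD, n = 2) for EZH2 and 0.914 ± 0.511% (SD, n = 2) for SUZ12. The difference of 0.198 percentage points was smaller than the spread between clones (two-sided exact permutation p = 0.667, where 0.333 is the smallest p that 4 libraries allow). Its sign turned without EZH2 replicate 1 (-0.198), without SUZ12 replicate 1 (-0.163) and with a limit of 70 bp (-0.293). The intervals cover counting error only, and read depth is unknown from peak lists.

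Most narrow peaks were close to the length of a read, which was 50 bp per the labels. The narrowest was 9 bp, the median 51 bp, and 349 of the 495 (70.5%) were 48 to 60 bp wide. The commonest narrow width was 58 bp on both strands of EZH2 replicate 1, with 11 plus-strand and 13 minus-strand peaks. It was 50 and 51 bp on the plus and minus strands of EZH2 replicate 2, with 9 and 10 peaks. In SUZ12 replicate 2 the minus strand had 12 peaks of 55 bp, its commonest narrow width. In SUZ12 replicate 1 the commonest was 58 bp on the plus strand (7 peaks) and 30 bp on the minus strand (3 peaks). That minus strand went the other way, with 19 narrow peaks under 48 bp and 12 of 48 to 60 bp. Per bp of width, all libraries together had 26.8 peaks from 48 to 60 bp, 22.5 from 61 to 75 bp and 36.1 from 76 to 94 bp. A sharp rise followed, to 450 from 95 to 110 bp, and 99 bp alone was the width of 162 to 471 peaks in each list. The dip at 61 to 75 bp was seen in EZH2 only. In the same classes up to 94 bp, EZH2 replicate 1 had 7.38, 2.27 and 5.26 peaks per bp. EZH2 replicate 2 had 4.77, 1.87 and 4.11. In SUZ12 the values rose, with 3.15, 4.73 and 4.84 in replicate 1 and 11.5, 13.6 and 21.9 in replicate 2. The limit of 60 bp itself fell in no gap. Pooled over libraries, 43, 22 and 20 peaks were 58, 59 and 60 bp wide, and 17, 11 and 12 were 61, 62 and 63 bp wide.

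**Figure D1:**
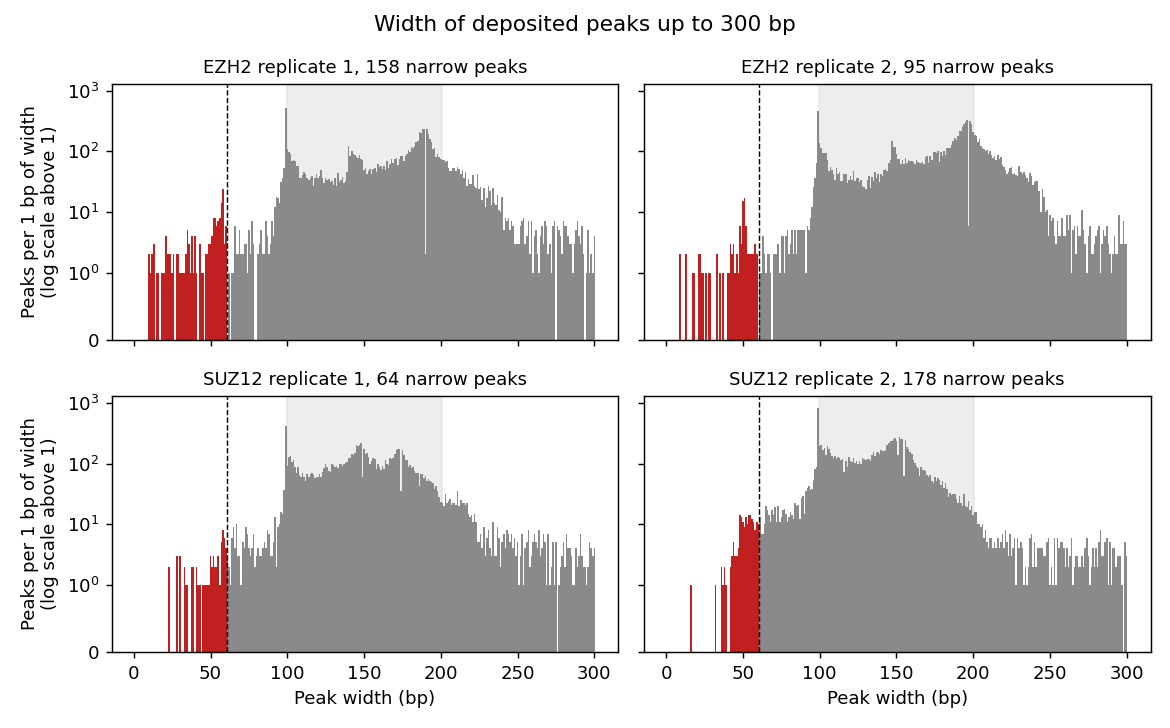
Number of peaks (vertical axis, linear up to 1 and logarithmic above) at each width in bp (horizontal axis, up to 300 bp) in the 4 libraries. Red bars are the 158, 95, 64 and 178 narrow peaks, the dashed line marks the 60-bp limit, and the grey band is the comparison class of 100 to 200 bp.

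Narrow peaks lay close to other peaks on their strand. The median distance from the summit of a narrow peak to the nearest same-strand summit of its own library was 4.04 kb in EZH2 replicate 1, 3.66 kb in EZH2 replicate 2, 2.72 kb in SUZ12 replicate 1 and 3.35 kb in SUZ12 replicate 2. For peaks of 100 to 200 bp it was 24.1, 18.2, 19.0 and 20.8 kb. The 4 narrow medians all lay below the 4 others, which were 5.96, 4.97, 6.98 and 6.22 times as long. A neighbour within 5 kb was found for 58.2, 57.9, 75 and 62.9% of narrow peaks, against 19.3, 22.6, 23.9 and 18.3% of the comparison class. Over all peaks it was 21.3, 22.1, 26.4 and 22.4%. Narrow peaks more than 50 kb from any same-strand peak numbered 14, 12, 3 and 12, or 8.86, 12.6, 4.69 and 6.74%. Over all peaks the share was 34.6, 29.9, 30.7 and 29.1%.

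A same-strand neighbour within 1 kb was found for 28 of 158 narrow peaks in EZH2 replicate 1, or 17.7% (Wilson interval 12.6 to 24.4%). The other libraries gave 19 of 95 (20%, 13.2 to 29.1%) for EZH2 replicate 2, 19 of 64 (29.7%, 19.9 to 41.8%) for SUZ12 replicate 1 and 30 of 178 (16.9%, 12.1 to 23.0%) for SUZ12 replicate 2. Over all peaks the share was 5.22, 5.04, 6.99 and 5.16% in that order, and in the comparison class 4.18, 4.84, 5.95 and 3.81%. Each narrow share exceeded each comparison share. The mean difference was 16.4 ± 4.99 percentage points (SD, n = 4), with narrow peaks higher in 4 of 4 libraries. An exact permutation test that flips the sign of each library's difference gave a two-sided p of 0.125, the smallest it can give, and 0.208 after Benjamini-Hochberg adjustment over the 5 class comparisons. With this test, no comparison of 4 libraries can pass 0.05.

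Within 1 kb, the nearness was seen mainly on the peak's own strand. On the opposite strand, a summit within 1 kb was found for 1, 2, 0 and 1 narrow peaks in the 4 libraries, and the mean difference from the comparison class was 0.402 percentage points (two-sided exact permutation p = 0.625). The 0 of 64 in SUZ12 replicate 1 allows a share of up to 4.69%, taken as 3 counts of 64 and not from a Wilson interval. Over longer distances narrow peaks were nearer to opposite-strand peaks as well. The median distance to the nearest opposite-strand summit was 98.5, 97.6, 87.9 and 104.5 kb. In the comparison class it was 155.3, 137.2, 144.4 and 138.2 kb, and this was not tested. No narrow peak touched or overlapped another peak of its list, and the smallest gap between edges was 104 bp in EZH2 replicate 2 and 204, 221 and 213 bp in the others. The nearest peak, here by the gap between edges, was itself at most 60 bp wide for 11 of 158, 3 of 95, 2 of 64 and 3 of 178 narrow peaks, or 6.96, 3.16, 3.13 and 1.69%. For the comparison class the nearest peak was narrow in 1.51, 0.780, 0.520 and 1.30%, a lower share in each library, so the neighbours of narrow peaks were more often narrow but mostly wider. The median FDR of the nearest peak was 0.000671, 0.000629, 0.000655 and 0.000220, lower than the 0.00194, 0.00160, 0.00209 and 0.00115 found for the neighbours of the comparison class. The FDR is the authors' value for each peak within its own list. Neighbours lay downstream of the narrow peak in 48.3 to 56.8% of cases, near an even split.

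**Figure D2:**
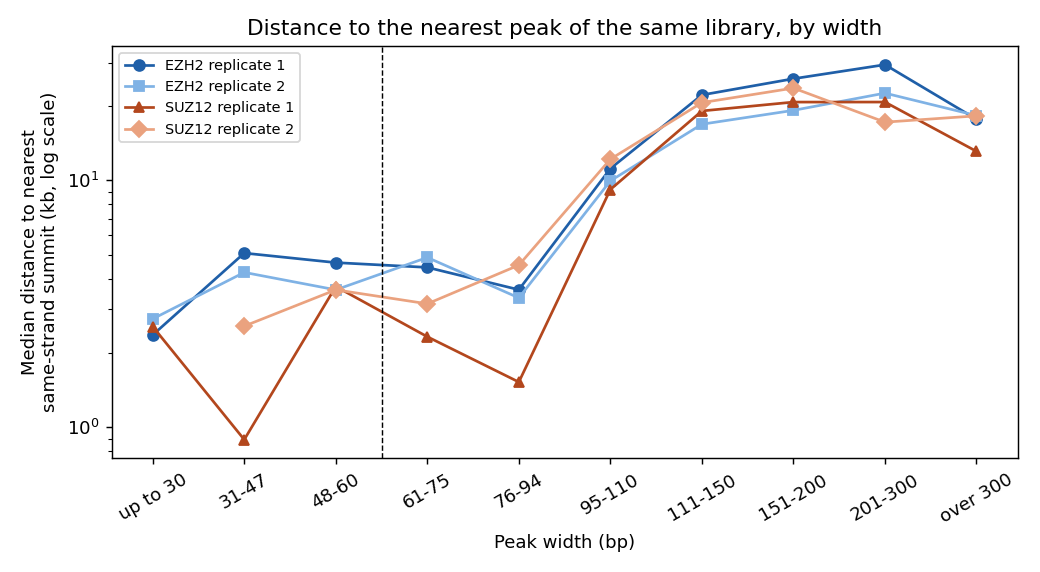
Median distance in kb (logarithmic axis) from a peak's summit to the nearest same-strand summit of the same library, by width class in bp, for the 4 libraries. Points left of the dashed line are narrow peaks, and classes with fewer than 5 peaks in a library are not drawn. Distances stayed low up to 94 bp and rose from 95 bp on.

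The limit of 60 bp did not mark the end of this pattern. Peaks of 61 to 75 bp had median distances of 4.44, 4.87, 2.33 and 3.16 kb, and those of 76 to 94 bp 3.61, 3.34, 1.52 and 4.53 kb, as near as the narrow peaks. At 95 to 110 bp the medians were 11.2, 9.95, 9.18 and 12.2 kb, and above 150 up to 200 bp 25.8, 19.2, 20.7 and 23.6 kb. The short distances were therefore shared by peaks up to 94 bp and are not particular to the narrow ones.

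Narrow peaks were also found in stretches dense in peaks. Windows of 50 kb were counted per strand, and a peak was in a dense window when the window held at least 3 other peaks of its library. Dense windows held 36 of 158 narrow peaks in EZH2 replicate 1 (22.8%), 35 of 95 in EZH2 replicate 2 (36.8%), 29 of 64 in SUZ12 replicate 1 (45.3%) and 63 of 178 in SUZ12 replicate 2 (35.4%). Over all peaks the shares were 10.2, 12.3, 14.6 and 13.0%, and in the comparison class 9.39, 11.99, 13.3 and 10.98%. The lowest narrow share was above the highest comparison share. The mean difference was 23.7 ± 7.67 percentage points (SD, n = 4), higher in 4 of 4 libraries (two-sided exact permutation p = 0.125, adjusted 0.208). Peaks of 61 to 75 bp had shares of 23.5, 14.3, 40.8 and 33.8%. Those of 76 to 94 bp had 31, 37.2, 38.0 and 28.6%. The excess is therefore one over the class of 100 to 200 bp and is not particular to narrow peaks.

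In each library the share of narrow peaks was higher in crowded windows than among lone peaks. Among peaks alone in their window it was 0.560% in EZH2 replicate 1, 0.265% in EZH2 replicate 2, 0.0572% (3 of 5243 peaks) in SUZ12 replicate 1 and 0.369% in SUZ12 replicate 2. Among peaks with at least 5 others it was 5.46% (10 of 183), 2.13% (6 of 282), 2.41% (12 of 497) and 3.77% (15 of 398). The Wilson intervals of these end points did not overlap in any library. They treat peaks as independent, which peaks that share a window may not be, so this is a description and not a test. Peaks as a whole were also narrower in dense windows: the median width fell from 181, 191, 153 and 143 bp for lone peaks to 154, 169, 142 and 124 bp for peaks with at least 5 others. Peaks of 61 to 99 bp rose alongside, from 2.82 to 6.62% of lone peaks to 10.6 to 26.9% of peaks with at least 5 others.

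**Figure D3:**
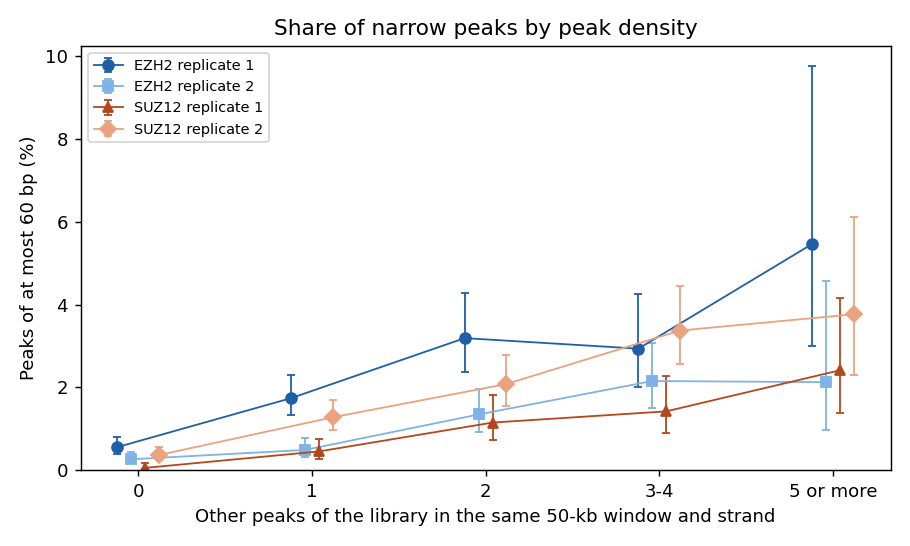
Share of peaks that were at most 60 bp wide (vertical axis, %) by the number of other peaks of the library in the same 50-kb window and strand (horizontal axis). Bars are 95% Wilson intervals. The share is below 0.6% for lone peaks and between 2.13 and 5.46% with 5 or more others.

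The stretches that held narrow peaks were used by the other clones as well. A window with a peak in each of the 3 other libraries held 103 of 158 narrow peaks (65.2%) in EZH2 replicate 1, 54 of 95 (56.8%) in EZH2 replicate 2, 47 of 64 (73.4%) in SUZ12 replicate 1 and 109 of 178 (61.2%) in SUZ12 replicate 2. For the comparison class it was 33.6, 29.6, 34.1 and 27.5%. A window with no peak in any other library held 3, 5, 3 and 9 narrow peaks, or 1.90, 5.26, 4.69 and 5.06%. For the comparison class this share was 17.2, 21.0, 16.9 and 21.6%. This measure was chosen after the data were seen and was not tested. It is not given here for all peaks or for peaks of 61 to 94 bp. It is therefore not shown to be particular to narrow peaks.

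In all, 421 of the 16871 windows with any peak held a narrow peak, 57 held at least 2 over all libraries, 3 held 4, and none held more. No window had a narrow peak in all 4 libraries and 10 had one in 3. The 3 windows with 4 narrow peaks were tied, and the order among them was set by chromosome name only. The leading window, at chr4:155550001-155600000 (minus strand), held 16 peaks, with 2, 0, 1 and 1 narrow (EZH2 first, and replicate 1 before 2). Its narrow peaks did not overlap each other. EZH2 replicate 1 had them at chr4:155550612-155550664 and chr4:155564296-155564324, SUZ12 replicate 1 at chr4:155550553-155550597 and SUZ12 replicate 2 at chr4:155553004-155553049. All coordinates are of mm9, counted from 1.

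**Figure D4:**
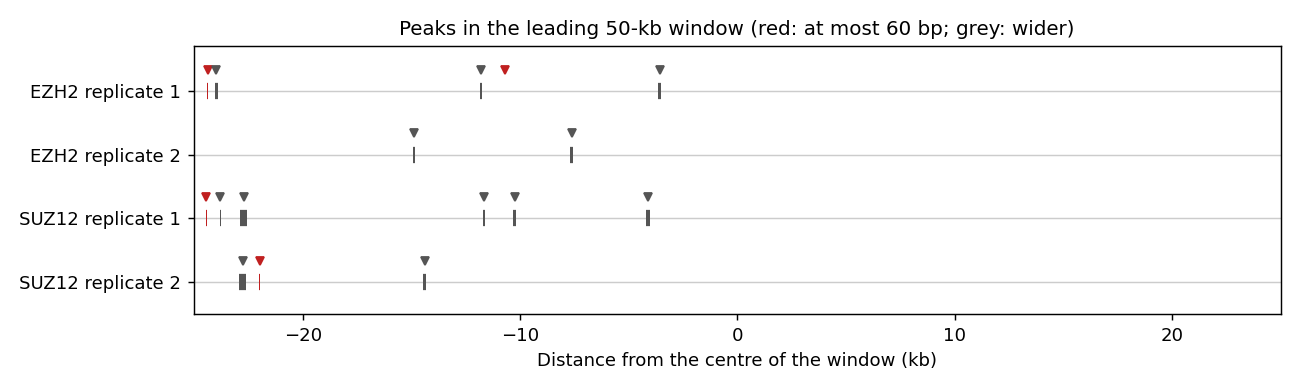
Peaks of each library along the leading 50-kb window, as distance in kb from its centre. The window is tied with others and comes first by chromosome name only. Bars show the extent of each peak to scale and triangles mark its position. Red is at most 60 bp wide (4 peaks) and grey is wider (12 of the 16 peaks).

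The window chr6:38500001-38550000 (plus strand) also had 4 narrow peaks, 1, 2, 0 and 1 among 6, 4, 5 and 5 peaks. The window chr8:87550001-87600000 (plus strand) had 2, 1, 1 and 0 among 5, 7, 10 and 7. Another 11 windows had 3 narrow peaks each, and the order among them was set by chromosome name only. The first of these were chr14:55500001-55550000 (plus strand), with 1, 1, 1 and 0 narrow among 2, 3, 3 and 2 peaks, and chr15:79350001-79400000 (minus strand), with 0, 0, 1 and 2 among 4, 6, 4 and 8. An annotation of mm9 and its genome sequence were not used here, so no window or peak is assigned to a gene and no sequence is shown.

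Recurrence was measured between summits, because a wide peak meets an overlap rule more easily. A narrow peak recurred when its summit lay within 100 bp of a same-strand summit of another library. This held for 30 of 158 narrow peaks in EZH2 replicate 1 (19.0%, Wilson interval 13.6 to 25.8%), 19 of 95 in EZH2 replicate 2 (20%, 13.2 to 29.1%), 14 of 64 in SUZ12 replicate 1 (21.9%, 13.5 to 33.4%) and 27 of 178 in SUZ12 replicate 2 (15.2%, 10.6 to 21.2%). Over all peaks 15.9, 13.2, 16.0 and 13.3% recurred, and in the comparison class 12.9, 10.3, 13.8 and 11.99%. The mean difference from the comparison class was 6.76 ± 2.79 percentage points (SD, n = 4), higher in 4 of 4 libraries (two-sided exact permutation p = 0.125, adjusted 0.208). In SUZ12 replicates 1 and 2 the comparison share lay within the interval of the narrow share. Other widths recurred as often or more: 20.6, 25, 23.9 and 17.6% at 61 to 75 bp, and 38.4, 38.5, 37.4 and 30.8% above 300 bp. The excess is therefore one over the class of 100 to 200 bp and is not particular to narrow peaks.

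The excess in recurrence was less stable than the nearness. It fell to 2.06 percentage points without SUZ12 replicate 1 and to 3.54 without EZH2 replicate 2, where peaks of the missing library no longer counted as partners. With summits within 50 bp SUZ12 replicate 1 turned to the other side, at 7.81% of narrow peaks against 10.0%. Within dense windows alone, the narrow peaks of 2 libraries were higher and those of 2 lower: 22.2, 28.6, 31.03 and 12.7% recurred, against 22.8, 15.3, 23.5 and 15.8% of the comparison class. Outside dense windows the shares were 18.03, 15.0, 14.3 and 16.5% against 11.8, 9.67, 12.3 and 11.5%. Both of these splits were chosen after the data were seen.

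Among the 495 narrow peaks, 405 had no partner in any other library, 68 had one in 1, 17 in 2 and 5 in all 3. A narrow peak of another library was among the partners of 8 of the 90 recurring peaks (8.89%), against 65 of 4551 recurring peaks of 100 to 200 bp (1.43%). Partners of narrow peaks were thus more often narrow, while most exceeded 60 bp (median 132.5 bp). Width is the value that chose the members, so these shares are a description. No narrow peak had the same start and end as a peak of another library.

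Merging overlapping same-strand peaks of any width put the narrow peaks in 492 sites. Of these sites 85 had a peak in another library, 3 had a narrow peak in more than 1 library and 9 had a peak in all 4. The site with the strongest pair of narrow peaks lay at chr14:55516012-55516068 (plus strand). It held a 52-bp peak in EZH2 replicate 1 with an FDR of 0.000120 and a 50-bp peak in EZH2 replicate 2 with an FDR of 0.00127, and none in SUZ12. It was the only site with a narrow peak in both clones of a protein and no other peak. A site at chr7:134702909-134702962 (plus strand) paired a 10-bp peak of EZH2 replicate 1 (FDR 0.00340) with a 54-bp peak of SUZ12 replicate 1 (FDR 0.00289).

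The third site with narrow peaks of more than 1 library, at chr17:23959720-23960747 (plus strand), was strong in all 4 libraries. Its narrow peaks, 13 bp wide in EZH2 replicate 1 and 54 bp in EZH2 replicate 2, were side peaks next to peaks of 760 and 718 bp, and the SUZ12 libraries had peaks of 325 and 742 bp and of 358 and 117 bp. The lowest FDR at the site was 1.54e-31, 7.31e-14, 5.08e-19 and 1.97e-13. The 54-bp peak had the lowest FDR of all narrow peaks, 3.15e-08, and its summit lay within 1 kb of that of its wide neighbour.

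Some sites were narrow in 1 library and wider in others. At chr7:52639028-52639230 (minus strand) the peak was 155, 58, 203 and 66 bp wide in the 4 libraries, with an FDR of 1.26e-13, 3.02e-07, 3.62e-12 and 2.04e-09. At chr7:149761699-149761959 (minus strand) it was 212 bp in EZH2 replicate 1 (FDR 1.30e-37), 261 bp in SUZ12 replicate 1 (3.01e-28) and 53 bp in SUZ12 replicate 2 (9.77e-06), and no peak was listed for EZH2 replicate 2. On the minus strand of chromosome 15, a 7651-bp site at 77602350 to 77610000 held a 54-bp peak of SUZ12 replicate 2 with an FDR of 4.79e-05. The whole length of that site was a single peak of EZH2 replicate 1, which ended on a multiple of 10 kb. Further sites with a peak in all 4 libraries, named after their values were seen, were narrow in another library each. At chr15:36537993-36538424 (minus strand) the widths were 23, 190, 281 and 89 bp, and at chr14:115443270-115443699 (plus strand) 211, 423, 59 and 221 bp. At both sites the narrow peak had the highest FDR of the 4 libraries, 0.000405 and 0.000491.

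Other strong narrow peaks overlapped no peak of another library. The 48-bp peak at chr1:24620948-24620995 (minus strand) was found in EZH2 replicate 2 only, with an FDR of 9.67e-06, and had 5 other peaks of that library in its window. SUZ12 replicate 1 alone had a 45-bp peak at chr4:155550553-155550597 (minus strand, FDR 2.21e-05), a 54-bp peak at chr4:118803241-118803294 (plus strand, 2.44e-05) and a 23-bp peak at chr17:35045677-35045699 (plus strand, 2.66e-05). The first of these 3 lies in the leading window and had a summit of another library within 100 bp although no peak overlapped it. In SUZ12 replicate 2 a 49-bp peak at chr8:86451278-86451326 (plus strand) reached 6.52e-05, and 1 other library had a summit within 100 bp of it.

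The 3 strongest narrow peaks of EZH2 replicate 1 were a 29-bp peak at chr15:76007164-76007192, a 35-bp peak at chr4:155546470-155546504 and a 52-bp peak at chr6:51412756-51412807, all on the minus strand, with FDRs of 5.49e-05, 6.10e-05 and 8.74e-05. The last lay 388860 bp from the nearest same-strand summit, the longest distance among the 3 strongest narrow peaks of each library.

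As a class, narrow peaks were weak. Their median FDR was 0.00500, 0.00484, 0.00536 and 0.00502 in the 4 libraries, against 0.00207, 0.00184, 0.00212 and 0.00104 in the comparison class. Peaks of 61 to 75 bp had medians of 0.00516, 0.00323, 0.00510 and 0.00483. Those of 76 to 94 bp had 0.00508, 0.00521, 0.00494 and 0.00314. A high FDR is therefore not particular to narrow peaks. Of the 10% of a library's peaks with the lowest FDR, narrow peaks made up 0, 3, 3 and 1. These were 0, 3.16, 4.69 and 0.562% of the narrow peaks. In the comparison class the share was 5.6, 4.31, 6.78 and 9.11%, higher in each library but also below 10%. The classes were closest in EZH2 replicate 2 and SUZ12 replicate 1. The caller's p-value was a whole power of 1/2, within 0.1%, for 157 of 158, 94 of 95, 64 of 64 and 177 of 178 narrow peaks, and for 98.4 to 99.5% of the comparison class. The median p of narrow peaks was the eighth such power, 0.00391, in each library, and 52, 22, 29 and 75 of them were at the seventh, 0.00781, the weakest power in the lists. The test behind these p-values is not given in the sources used here, so a strong or weak peak means only one with a low or high FDR. Width and FDR come from the same call, so these values were not tested. When peaks of 100 to 200 bp were weighted to the FDR deciles of the narrow peaks, the narrow excess was 17.3 percentage points for a neighbour within 1 kb, 25.7 for dense windows and 9.14 for recurrence, no smaller than without the weights.

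The strand of narrow peaks differed between libraries. The plus strand carried 79 of 158 in EZH2 replicate 1 (50.0%), 55 of 95 in EZH2 replicate 2 (57.9%), 33 of 64 in SUZ12 replicate 1 (51.6%) and 57 of 178 in SUZ12 replicate 2 (32.0%, Wilson interval 25.6 to 39.2%). The comparison class was near an even split or above it, at 49.8, 50.6, 52.7 and 55.0%. SUZ12 replicate 2 stood apart, with 121 narrow peaks on the minus strand. The mean difference was -4.14 ± 13.1 percentage points (SD, n = 4), with narrow peaks higher on the plus strand in 2 of 4 libraries (two-sided exact permutation p = 0.75, adjusted 0.75). Without SUZ12 replicate 2 the difference turned to 2.14. The near-even share of SUZ12 replicate 1 joined 2 unlike parts. Its plus strand held 4 of 23 peaks under 48 bp (17.4%) and 29 of 41 peaks of 48 to 60 bp (70.7%), which was not tested.

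The widths of whole lists also differed by strand in SUZ12. In SUZ12 replicate 2 the median width of all peaks was 146 bp on the plus strand and 129 bp on the minus strand, and in SUZ12 replicate 1 it was 145 and 168 bp. Narrow peaks made up 0.764% of plus-strand and 1.87% of minus-strand peaks in SUZ12 replicate 2. In SUZ12 replicate 1 they did not follow the widths, at 0.555 and 0.550%. In EZH2 the strands were close, at 179 and 174 bp and at 187 and 188 bp. Within SUZ12 replicate 2 the plus strand held 29.3% of peaks of 48 to 60 bp, 37.7% of those of 61 to 75 bp, 46.7% of those of 100 to 150 bp and 71.5% of those above 150 up to 200 bp. The order did not hold at the ends, with 46.4% of the 28 peaks under 48 bp and 68.5% of those above 200 up to 300 bp on the plus strand. The part of this shift in the strand of the narrow peaks was not tested. Taking the narrowest 1% of each list against the middle 50% of its widths, a rule added after the data were seen, gave differences of 16.6 percentage points for neighbours within 1 kb, 22.6 for dense windows and 8.92 for recurrence, each higher in 4 of 4 libraries.

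**Figure D5:**
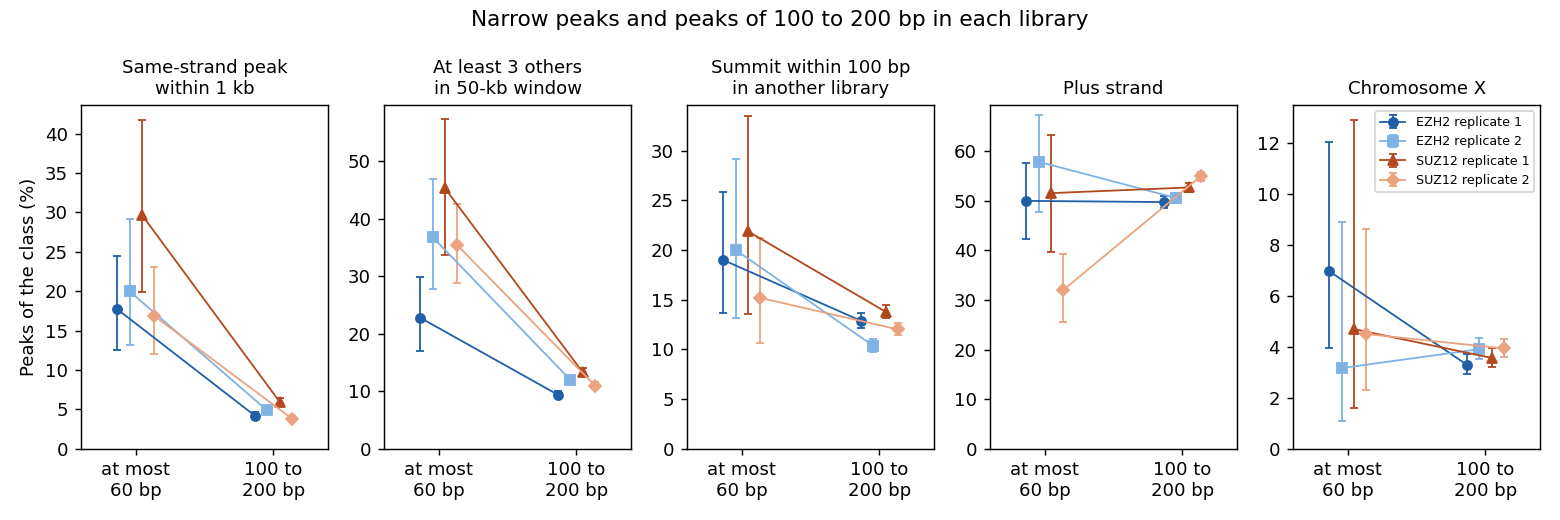
Share of narrow peaks and of peaks of 100 to 200 bp (vertical axes, %, each starting at 0) with a same-strand summit within 1 kb, in a dense 50-kb window, with a summit within 100 bp in another library, on the plus strand, and on X. Each line is a library and bars are 95% Wilson intervals. The first 3 measures fall from narrow to wider peaks in every library, and SUZ12 replicate 2 has the lowest plus-strand share, 32.0%.

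Narrow peaks were spread unevenly over the chromosomes. Chromosome 8 held 17 of 158, 13 of 95, 10 of 64 and 20 of 178, or 10.8, 13.7, 15.6 and 11.2%, against 6.47 to 7.03% of the comparison class. Chromosome 17 held 8.23, 10.5, 15.6 and 5.06%, against 4.39 to 5.06%. Chromosome 1, which carried 5.02 to 6.64% of the comparison class, held 2, 3, 0 and 2 narrow peaks. The ranges of the 4 libraries did not overlap between the classes on 8 of 20 chromosomes. Narrow peaks were higher on chromosome 8 and lower on chromosomes 1, 3, 5, 10, 11, 12 and 18. Chromosomes were compared after their values were seen, with no test.

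Chromosome X is the chromosome that female cells silence in 1 copy, with PRC2 marking the silent one. It held 11 of 158 narrow peaks in EZH2 replicate 1 (6.96%), 3 of 95 in EZH2 replicate 2 (3.16%), 3 of 64 in SUZ12 replicate 1 (4.69%) and 8 of 178 in SUZ12 replicate 2 (4.49%). The comparison class had 3.29, 3.90, 3.56 and 3.93%. The mean difference was 1.16 ± 1.85 percentage points (SD, n = 4), higher in 3 of 4 libraries (two-sided exact permutation p = 0.375, adjusted 0.469), less than the spread between libraries. It was 0.318 without EZH2 replicate 1 and 1.79 without EZH2 replicate 2. No narrow peak lay on chromosome Y.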

How the data were processed

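Tools listed without a role in the submitters' processing notes are bedtools 2.17.0, SAMtools 0.1.18, TopHat2 2.0.8 and Trim Galore 0.3.3, and the build is mm9. The peak lists hold, as deposited, chromosome, start, end, strand, summit, and a p-value and FDR from the authors' caller, which the file names give as PeakRanger. Its settings and use of the mock library are not given in the sources used here. Each list is 1 strand of 1 library.

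Width was end minus start. Distances were taken between summits, of which 1 of the 495 narrow peaks had its own outside its interval. The width, FDR and side of the nearest peak are those of the peak with the smallest gap between edges. No count filter was applied. Shares have 95% Wilson intervals. Libraries, not peaks, were the unit of each test: exact sign flips of 4 within-library differences, or exact permutation of 4 library labels. SciPy 1.17.1, pandas 2.3.3 and NumPy 2.4.6 under Python 3.11.15 were used. Recurrence, neighbours within 1 kb and plus-strand share were computed on simulated lists with planted values, and the other measures were not. Regions were named by rule: up to 10 sites with narrow peaks in the most libraries, 3 narrow peaks per library with the lowest FDR, and 5 windows with the most narrow peaks. Members, rules and comparisons were chosen with earlier results of these data known. Replicates are clones, so the tests take clones and not peaks as the unit. The sign-flip p is 0.125 whenever all 4 differences share a sign, whatever their spread between clones. Alternatives covered other limits of width, distance, overlap, window and FDR, matched FDR, replicate blocks and leaving out each library.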

Additional observations from a re-analysis of the deposited data

Results flagged for a closer look

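The plus-strand share of narrow peaks minus that of peaks of 100 to 200 bp was above 0 in both EZH2 libraries, at 0.241 and 7.32 percentage points, and below 0 in both SUZ12 libraries, at -1.14 and -23.0. The means differed by 15.84 percentage points, EZH2 minus SUZ12 (exact permutation test of the protein labels, two-sided p = 0.333, the smallest that 4 libraries allow, and 1 after adjustment over the 5 comparisons). The gap rests on SUZ12 replicate 2, since the other 3 libraries lay between -1.14 and 7.32.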

How the results depend on the processing

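Apart from replicate blocks, which keep a value by construction, and opposite-strand values, 80 of 84 values under other settings kept their direction. None passed 0.05, which the exact tests used cannot with 4 libraries. The EZH2 minus SUZ12 difference in the narrow share turned at 70 bp (-0.293) and ranged from -0.198 to 0.595 percentage points with a library left out. The plus-strand difference ranged from -7.96 to 2.14 with a library left out. With a library left out, the difference was 13.9 to 17.5 for neighbours within 1 kb, 20.9 to 27.1 for dense windows, 2.06 to 7.31 for recurrence and 0.318 to 1.79 for chromosome X. Recurrence was 4.27 with summits within 50 bp, 0.165 with summits at the same base, where 2 narrow peaks in all recurred, and 0.282 on the opposite strand. With a replicate block the 5 class differences and the protein difference of 0.198 kept their values and no p was below 0.5. The labels do not say that numbers mark a shared day or batch. Narrow shares per chromosome of same-numbered libraries deviated with a correlation of -0.148 over 20 chromosomes. The crossed pairing, added after seeing the data, gave 0 calls, as did the block.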

Other observations

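The summit of a narrow peak sat near the lower coordinate of the peak in EZH2 more often than in SUZ12. It lay within 5 bp of that edge in 56 of 158 narrow peaks (35.4%) and 64 of 95 (67.4%) of EZH2 replicates 1 and 2, and in 8 of 64 (12.5%) and 21 of 178 (11.8%) of SUZ12 replicates 1 and 2. The edge was the same on both strands, so it was the upstream end on the plus strand and the downstream end on the minus strand: in EZH2 replicate 2, 74.5% of plus-strand and 57.5% of minus-strand narrow peaks had it. Peaks of 100 to 200 bp showed the same order at lower shares, 8.57 and 13.1% in EZH2 and 1.09 and 0.387% in SUZ12. The upper edge held the summit of 21.5, 10.5, 10.9 and 9.55% of narrow peaks. Whether the summit position counts from 0 or from 1 is not given in the sources used here. Counted from 1, the lower edge held 63, 65, 10 and 22 narrow summits (39.9, 68.4, 15.6 and 12.4%). These values were seen in the data first and were not tested.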
